A study of Mus musculus with 14 samples.

Results

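The comparison described here sets the cells with the highest dihydroethidium signal among Nestin-GFP cells of the adult mouse dentate gyrus against those with a low signal. It uses the 4 libraries titled GFP+ROS+++ and the 5 titled GFP+ROS+, which are 9 of the 14 libraries of the series, and follows all 15102 genes that passed a filter on low values. The other 5 libraries, of the class between them, entered the statistical model only. All mice are listed as B6.Cg-Tg(Nes-EGFP)1Yamm, in which regulatory elements of the Nestin gene drive enhanced green fluorescent protein, and the labels give no treatment for any of them. Both classes were taken from enzymatically dissociated dentate gyrus by a cell sorter that read GFP and dihydroethidium, a dye that becomes fluorescent when superoxide and related oxidants act on it. GFP reports the activity of the transgene and not the identity of a cell, and the labels name neither animals, ages in days, sexes nor pools behind a library. The classes are written ROS+ and ROS+++ below, for reactive oxygen species (ROS).

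The dentate gyrus of the hippocampus makes neurons throughout life. Radial glia-like stem cells, which share many genes with astrocytes, give rise to intermediate progenitors and then to neuroblasts, which exit the cell cycle and become granule neurons. Nestin is an intermediate filament protein of the stem and progenitor cells, and is also known from pericytes, the contractile cells that wrap brain capillaries. Oxidants in cells come mostly from the respiratory chain and from NADPH oxidases, and are removed by superoxide dismutases, peroxidases and the glutathione and thioredoxin systems, which draw their reducing power from the pentose phosphate pathway.

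Each ROS+ library held 20832009 to 25313902 reads over the listed genes and each ROS+++ library 12704227 to 20998589, so that 3 reads, the upper limit that a count of 0 allows for counting error, correspond to 0.119 to 0.144 and 0.143 to 0.236 CPM, which is reads scaled to 1000000 per library. The 10 genes with the most reads took 5.81 to 6.96% of a ROS+ library and 11.2 to 12.1% of a ROS+++ library. The first principal component of the 9 libraries held 77.9% of the variance and separated the classes. On the second, which held 5.36%, ROS+++ replicates 1 and 3 lay farthest apart. The labelled cell type, Nestin-positive precursor cells, was checked against its markers. Nes was read in all 9 libraries, while Eomes, the defining gene of neuronal intermediate progenitors, was at 0.143 to 0.236 CPM in the ROS+++ libraries, close to what 3 reads give, and the doublecortin gene Dcx at 0.196 to 8.19 CPM. By contrast, 21 of 31 radial glia-like stem cell genes were called higher in ROS+++ and 5 lower with library totals (the test is given below). Gfap was at 1.15 to 18.7 CPM in ROS+ and 69.1 to 197 CPM in ROS+++. Hopx was at 0.188 to 3.88 CPM in ROS+ and 11.1 to 55.2 CPM in ROS+++. Because precursor markers went in both directions, ROS+++ is used below as the name of a sort gate and not of a precursor type.

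Changes below are ROS+++ minus ROS+ in log2(CPM + 1), given ± the standard error, and "rose" or "fell" is written of genes that passed limma's test at a Benjamini-Hochberg adjusted p under 0.05. The added 1 CPM understates the change of genes near 0 in 1 class. Each change has a value from library totals and a value after median-of-ratios scaling, which sets the libraries so that the typical gene does not move. Unless a sentence says otherwise, a change is from library totals. Replicates are separate samples by their titles, but nothing says that they come from separate animals, so the p-values cover only the spread among the libraries as sampled, part of which may be technical. In sorted bulk samples, fewer cells of a type and less RNA per cell cannot be told apart.

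The gates differed in most of the measured genome, and the balance of rises and falls depended on the scaling. With library totals 8947 genes were called, 59.2% of those tested, of which 2904 (19.2%) were higher and 6043 (40.0%) lower in ROS+++, with a median change of -0.44 over all genes. With median-of-ratios scaling 7921 genes were called, 52.5%, of which 4009 (26.5%) were higher and 3912 (25.9%) lower, with a median of -0.04. The share of calls that were higher thus went from 32.5% to 50.6%. The scaling factors were 1.07 to 1.15 in ROS+ and 0.763 to 0.844 in ROS+++, and they moved the median gene up by 0.41. A set of 6816 genes had the same call under both scalings, 2904 higher and 3912 lower. Another 2129 genes were called lower with library totals only, and 1103 were called higher with median-of-ratios scaling only. The shares and medians over all genes are the background for the counts in gene lists below.

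The number of large changes depended less on the scaling, but their balance of rises and falls still moved with it. A limma test for changes beyond 2-fold called 3257 genes with library totals (21.6%), 1414 higher (9.36%) and 1843 lower (12.2%), and 3085 with median-of-ratios scaling (20.4%), 1792 higher (11.9%) and 1293 lower (8.56%). The share of these calls that were higher went from 43.4% to 58.1%. The 1414 higher genes and 1293 lower genes were called the same way by both. Those 1414 genes took 2.46 to 3.08% of the reads in ROS+ and 31.2 to 36.0% in ROS+++. The 1293 genes took 16.8 to 18.0% of the reads in ROS+ and 1.41 to 2.47% in ROS+++. With library totals the libraries of the classes did not overlap in 7553 genes (50.0%), 2533 higher (16.8%) and 5020 lower (33.2%), and with median-of-ratios scaling in 6717 (44.5%), 3542 higher (23.5%) and 3175 lower (21.0%).

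**Figure D1:**
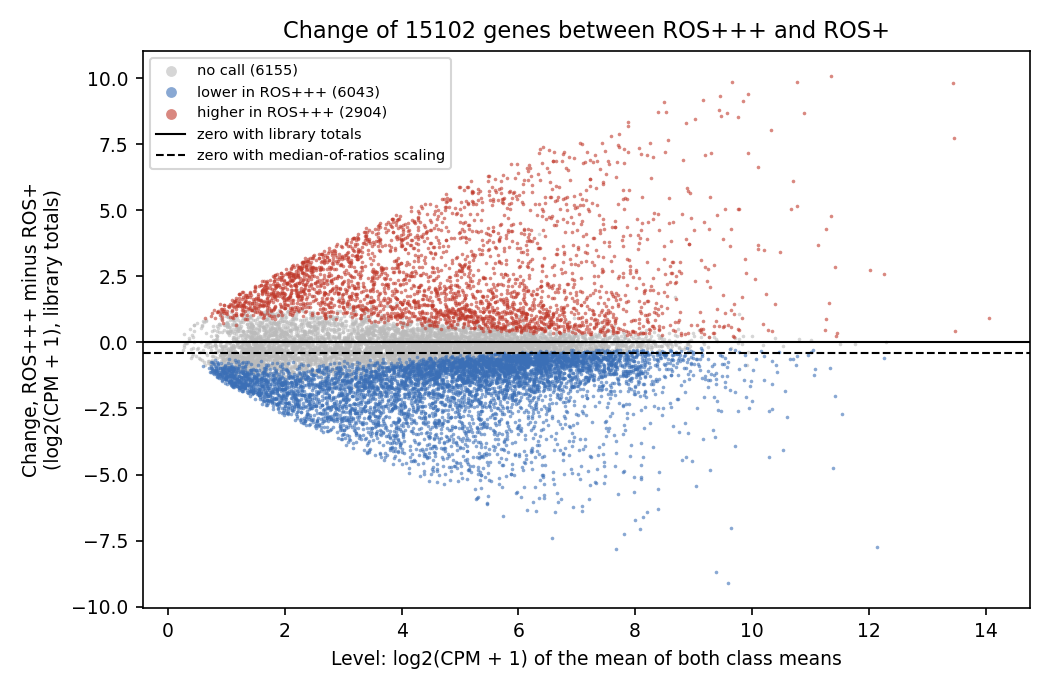
Each point is 1 of 15102 genes, with its level on the x axis (log2 of mean CPM + 1) and its change from ROS+ (5 libraries) to ROS+++ (4 libraries) on the y axis (log2(CPM + 1), library totals). Red and blue mark the 2904 higher and 6043 lower calls, and the dashed line, 0.41 below 0, is where a gene with no change lies after median-of-ratios scaling.

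The scalings lie 0.41 apart, so only a small range of changes can be near 0 under both. Of 7778 genes with a mean of at least 20 CPM, 16 had a 95% interval of the change within 0.5 on either side of 0 under both. Among them were Mdh2 and Cs, the mitochondrial malate dehydrogenase and citrate synthase genes of the citric acid cycle. The interval for Cs was -0.43 to -0.00 with library totals and 0.00 to 0.45 with median-of-ratios scaling, from 224 to 281 CPM in ROS+ and 194 to 230.1 CPM in ROS+++. Only Cox4i1, a subunit of cytochrome c oxidase, and Hmgb1, a chromatin protein, had calls in opposite directions. Cox4i1 stood at 595, 544, 606, 613 and 645 CPM in the ROS+ libraries and 523, 539, 478 and 549.8 CPM in the ROS+++ libraries, and the libraries overlapped. Its change was -0.20 ± 0.08 with library totals (adjusted p = 0.0384) and 0.24 ± 0.08 after scaling (adjusted p = 0.0229). Hmgb1 changed by -0.21 ± 0.08 and 0.23 ± 0.09 (adjusted p = 0.0428 and 0.0398). The call of Cox4i1 with library totals also ended without ROS+ replicates 1, 3, 4 or 5 or ROS+++ replicates 1, 2 or 3 (adjusted p = 0.0509 to 0.129), and that of Hmgb1 without ROS+ replicates 1, 3 or 4 or any ROS+++ replicate (adjusted p = 0.0615 to 0.116). After scaling, the call of Cox4i1 ended without ROS+ replicate 2 or ROS+++ replicate 2 (adjusted p = 0.0629 and 0.0559), and that of Hmgb1 without ROS+ replicates 2, 4 or 5 or ROS+++ replicates 2 or 3 (adjusted p = 0.0647 to 0.113).

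The genes with the most reads were different in the classes. In ROS+++ they were, in falling order of mean CPM and without correction for length, the nuclear noncoding RNA Malat1, the G protein signalling regulator Rgs5, the matrix protein gene Vtn, Actb, the growth factor Ptn, the matrix protein gene Sparcl1, the pericyte cation pump gene Atp13a5, mt-Cytb, Fos and the protease inhibitor gene Cst3. In ROS+ they were Malat1, Actb, the neuroblast transcription factor Sox11, the axon growth protein gene Dpysl2, Nfib, the tubulin gene Tuba1a, mt-Cytb, Nfia, H3f3b and the G protein subunit gene Gnb1. Malat1 rose by 0.92 ± 0.10 and mt-Cytb was at 0.03 ± 0.10 with library totals (adjusted p = 0.807) and 0.47 ± 0.10 after scaling (adjusted p = 0.00055).

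Pericyte genes took over the upper end of the ROS+++ libraries. All 30 tested members of the pericyte list rose, under both scalings, with a median change of 7.25 with library totals and 7.59 with median-of-ratios scaling. Their summed level was 975, 555, 565, 655 and 359 CPM in ROS+ replicates 1 to 5 and 73654, 70312, 81613 and 71553 CPM in ROS+++ replicates 1 to 4. ROS+ replicate 1 was the highest of its class and replicate 5 the lowest, and every ROS+++ library lay far above both. Rgs5 (chromosome 1, 169655501 to 169695813 in GRCm38) stood at 239, 171, 183, 142 and 10.7 CPM in the ROS+ libraries and 19153, 24244, 25668 and 20233 CPM in the ROS+++ libraries. Its change was 7.72 ± 0.78 (adjusted p = 4.96e-06) and 8.16 ± 0.79 after scaling. Vtn (chromosome 11, 78499091 to 78502324), which encodes the adhesion protein vitronectin, had 184, 22.9, 19, 23.2 and 3.1 CPM in the ROS+ libraries and 24530.0, 18776, 23395 and 22287 CPM in the ROS+++ libraries. The highest ROS+ library, replicate 1, lay far below the lowest ROS+++ library, and the change was 9.82 ± 0.82 (adjusted p = 8.90e-07). Pdgfrb, the receptor through which endothelial PDGF recruits pericytes, was at 23.7, 8.88, 1.74, 1.71 and 0.141 CPM in the ROS+ libraries and 2057, 1461, 1991 and 1391 CPM in the ROS+++ libraries and rose by 8.53 ± 0.73.

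Atp13a5, the largest rise of all called genes whose libraries did not overlap, was at 15.1, 5.9, 2.23, 4.77 and 0.281 CPM in ROS+ and 4970.3, 5085, 6069 and 4805 CPM in ROS+++, a change of 10.07 ± 0.58 (adjusted p = 1.44e-08). Among the next largest were Casq2, a calcium-binding protein of the sarcoplasmic reticulum (9.86 ± 0.27), Spp1, the secreted phosphoprotein osteopontin (9.84 ± 1.25), Vtn, the ectoenzyme gene Art3 (9.38 ± 0.36), the amino acid transporter gene Slc6a20a (9.30 ± 0.52) and Higd1b (9.14 ± 0.47). Lyz2, the lysozyme of macrophages, followed at 9.08 ± 0.39, and then Kcnj8 (8.79 ± 0.55), the aminopeptidase gene Enpep (8.73 ± 0.37) and Cox4i2 (8.73 ± 0.31). Spp1 was uneven in both classes, with 105, 0.192, 0.134, 1.92 and 0.141 CPM in the ROS+ libraries and 3748, 3527, 5257 and 1386 CPM in the ROS+++ libraries. Only ROS+ replicate 1 held more than 2 CPM of it in that class.

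**Figure D2:**
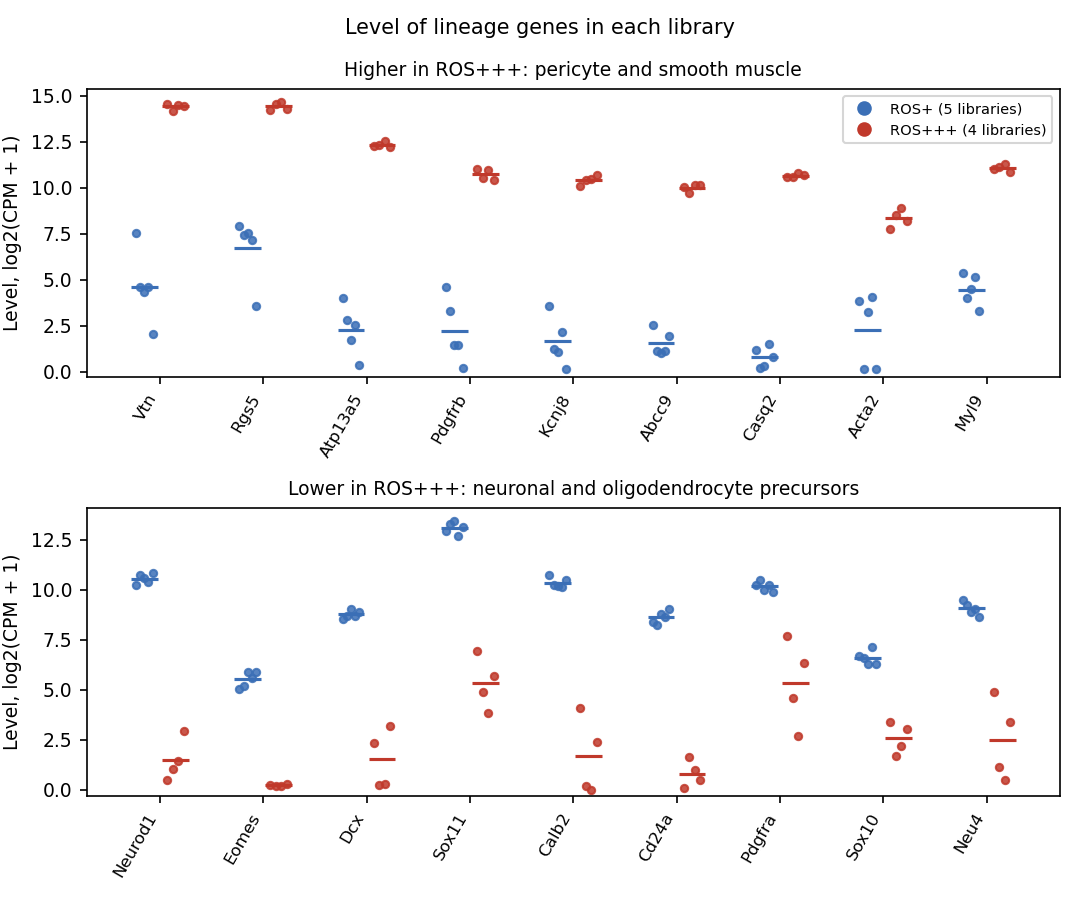
Points are single libraries (blue, 5 ROS+, and red, 4 ROS+++), lines are class means, and the y axis is the level as log2(CPM + 1). Upper panel, 9 pericyte and smooth muscle genes, and lower panel, 9 genes of neuronal and oligodendrocyte precursors. The classes do not overlap in any of the 18 genes.

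Genes of the contractile and signalling apparatus of vessel-wall cells rose with the pericyte genes, but some are members of both lists, such as Des in the smooth muscle list. Of 21 smooth muscle contractile genes 17 rose and none fell, with a median of 4.28 with library totals and 4.63 with median-of-ratios scaling. Acta2, smooth muscle actin, was at 13.4, 0.096, 8.56, 15.3 and 0.0938 CPM in the ROS+ libraries and 215, 372, 481 and 290.2 CPM in the ROS+++ libraries, and rose by 6.07 ± 0.89. In ROS+ its libraries split into 3 with 8.56 CPM or more and 2 near 0. Myl9, a regulatory myosin light chain, was at 40.2, 14.9, 21.7, 34.6 and 8.68 CPM in the ROS+ libraries and 2062, 2245, 2519 and 1856 CPM in the ROS+++ libraries, a change of 6.62 ± 0.39. Mylk, the kinase of that light chain, rose by 6.19 ± 0.42, the heavy chain gene Myh11 by 5.56 ± 0.77, Tagln by 4.71 ± 0.95 and the actin-binding protein gene Cald1 by 3.52 ± 0.18. ROS+++ replicate 1 held the least Acta2, Tagln (55.6, 209, 284 and 164 CPM in replicates 1 to 4) and Myh11 (51.4, 170.0, 143 and 132 CPM) of its class.

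Among 47 genes of vascular tone, which cover receptors, ion channels and cyclic nucleotide enzymes, 32 rose and 7 fell, with a median of 2.35 with library totals and 2.75 with median-of-ratios scaling. Some are also members of the pericyte list, among them Kcnj8, Abcc9, P2ry14 and Gucy1b1. Kcnj8 and Abcc9, the pore and the sulfonylurea receptor of the ATP-sensitive potassium channel of pericytes, rose by 8.79 ± 0.55 and 8.47 ± 0.37. Kcnj8 was at 0.0938 to 10.9 CPM in ROS+ and 1076 to 1631 CPM in ROS+++, and Abcc9 at 1.03 to 4.78 CPM in ROS+ and 841 to 1141 CPM in ROS+++. P2ry14, a receptor for UDP-glucose, rose from 39.4 to 51.8 CPM to 2872 to 3635 CPM, a change of 6.12 ± 0.25. Gucy1b1, a subunit of the nitric oxide receptor guanylyl cyclase, rose by 5.03 ± 0.19, and Kcnmb1, the beta subunit of the large-conductance calcium-activated potassium channel, by 7.14 ± 0.39. The pore gene of that channel, Kcnma1, fell by 2.83 ± 0.42, from 8.3 to 15.3 CPM to 0.238 to 2.06 CPM. Also lower were the calcium release channel genes Ryr2 and Ryr3, by 1.86 ± 0.42 and 2.71 ± 0.39, the endothelin receptor gene Ednrb, by 1.87 ± 0.24, and the receptor subunit gene Ramp1, by 1.48 ± 0.30. Ramp2 fell by 1.18 with library totals but did not pass after scaling (adjusted p = 0.0583).

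The matrix that surrounds capillaries followed. Of 37 extracellular matrix and basement membrane genes 29 rose and 3 fell, with a median of 2.67 with library totals and 3.05 with median-of-ratios scaling. The basement membrane linker gene Nid1 stood at 4.98, 0.24, 0.134, 0.554 and 0.281 CPM in the ROS+ libraries and 512, 328, 452 and 389 CPM in the ROS+++ libraries and rose by 7.89 ± 0.42. Sparc, a matrix protein that binds collagen IV, rose from 69 to 163 CPM to 3027 to 3947 CPM (5.17 ± 0.23), the collagen IV chain gene Col4a1 by 5.45 ± 0.30 and Ecm2 by 7.55 ± 0.28. The fibrillin gene Fbn1 fell by 2.98 ± 0.32 and the gelatinase gene Mmp2 by 2.93 ± 0.62, while its inhibitor gene Timp2 fell by 0.66 ± 0.19 with library totals and stood at -0.23 ± 0.20 after scaling (adjusted p = 0.351).

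Endothelial cells line the same vessels, and their defining genes did not move with the pericyte genes. Pecam1, an adhesion molecule of endothelial junctions, was at 6.99, 11.6, 8.79, 38.1 and 9.8 CPM in the ROS+ libraries and 11.2, 13.9, 5.19 and 16.6 CPM in the ROS+++ libraries, and the classes overlapped (change -0.17 ± 0.63, adjusted p = 0.835). Cldn5, the tight junction gene of the blood-brain barrier, was at 0.24 to 5.84 CPM in ROS+ and 0.619 to 5.43 CPM in ROS+++ (0.31 ± 0.63, adjusted p = 0.694), and the cadherin gene Cdh5 at 0.24 to 6.22 CPM in ROS+ and 0.429 to 7.56 CPM in ROS+++ (0.72 ± 0.61, adjusted p = 0.321). None of the 3 passed after scaling either. Of the 23 endothelial list members 9 rose and none fell, with a median of 0.64 with library totals and 0.95 with median-of-ratios scaling. The members with the smallest adjusted p were the adhesion gene Esam, from 8.21 to 33.3 CPM to 785 to 1093 CPM (5.74 ± 0.32), the sialomucin gene Emcn (4.58 ± 0.40), the TGF-beta co-receptor gene Eng (4.14 ± 0.41) and the lipid transfer gene Pltp (2.68 ± 0.25). Fibroblasts of the brain's coverings share many genes with pericytes. In the leptomeningeal fibroblast list 13 of 16 rose and 1 fell, with a median of 4.54 with library totals and 4.86 with median-of-ratios scaling. The member that fell was Pdgfra, which is also in the oligodendrocyte precursor list. In ROS+ its mean of 1171 CPM was most of the mean sum of the fibroblast list, 1306 CPM. The members of the fibroblast list with the smallest adjusted p were Igf2 (6.50 ± 0.39), Foxc1 (5.38 ± 0.37), Ogn (5.26 ± 0.39) and Foxd1 (4.84 ± 0.35). Of the defining genes of this list the proteoglycan gene Dcn rose, by 4.25 ± 0.73, whereas Col1a1 was at 0.096 to 2.09 CPM in ROS+ and 0.859 to 5.35 CPM in ROS+++ (adjusted p = 0.338) and Lum at 4.5, 0, 1.34, 2.52 and 1.41 CPM in the ROS+ libraries and 0.0955, 13.8, 0 and 0.0787 CPM in the ROS+++ libraries (adjusted p = 0.786).

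Macrophage genes were higher in all 4 ROS+++ libraries, by amounts that differed between them. Of 23 microglia genes 21 rose and none fell, with a median of 4.10 with library totals and 4.44 with median-of-ratios scaling, and of 21 genes of border-associated macrophages and monocytes 18 rose and none fell, with a median of 3.95 with library totals and 4.25 with median-of-ratios scaling. The microglia list summed to 67.7 to 96 CPM in ROS+ and 889 to 2456 CPM in ROS+++. For the second list the sums were 74.6, 87.7, 72.7, 86.5 and 48.5 CPM in ROS+ replicates 1 to 5 and 1041, 6239, 2743 and 618 CPM in ROS+++ replicates 1 to 4. Replicate 2 of ROS+++ held the most and replicate 4 the least. Lyz2 was at 0.079, 0.096, 0.223, 0.128 and 0.141 CPM in the ROS+ libraries and 711, 1173, 759 and 222 CPM in the ROS+++ libraries, which is 2 to 5 reads in each ROS+ library. The scavenger receptor gene Cd163 was at 0, 0.192, 0, 0.0426 and 0.188 CPM in the ROS+ libraries and 0.43, 65.6, 31.2 and 6.45 CPM in the ROS+++ libraries and rose by 3.51 ± 0.75 (adjusted p = 0.000627). Mrc1, the mannose receptor of border-associated macrophages, was at 5.58, 172, 207 and 29.9 CPM in ROS+++ and rose by 5.43 ± 0.76, a call lost in limma-voom (adjusted p = 0.0987). Both genes were lowest in ROS+++ replicate 1. Cx3cr1 and P2ry12, receptors that define microglia, rose by 4.10 ± 0.65 and 3.00 ± 0.47, with 13, 35.2, 26.3 and 44.3 and 18.4, 34.1, 15.7 and 39.6 CPM in ROS+++. Both were highest in ROS+++ replicate 4, where the sums of both lists were lowest. The lysosomal protease gene Ctss, the adaptor genes Tyrobp and Fcer1g and the leukocyte phosphatase gene Ptprc rose by 6.97 ± 0.36, 6.61 ± 0.35, 6.72 ± 0.42 and 5.66 ± 0.41. Of 2 lymphocyte and neutrophil genes tested, Cd79b, a B cell receptor subunit, was at 0 to 0.048 CPM in ROS+ and 0 to 3.14 CPM in ROS+++ and rose by 1.25 ± 0.42, a call that ended without ROS+++ replicates 2 or 3 (adjusted p = 0.0532 to 0.0638). Blood was read through Alas2, the haem synthesis enzyme of red cell precursors, which was at 1.19, 3.26, 1.83, 2.81 and 1.74 CPM in the ROS+ libraries and 0.62, 1.18, 0.143 and 50.8 CPM in the ROS+++ libraries (adjusted p = 0.769), with only ROS+++ replicate 4 high. Of 3 ependymal and choroid plexus genes Rarres2 and Cfap126 rose (7.38 ± 0.42 and 1.60 ± 0.46) and Enpp2, which oligodendrocytes also express, fell by 3.45 ± 0.27.

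**Figure D3:**
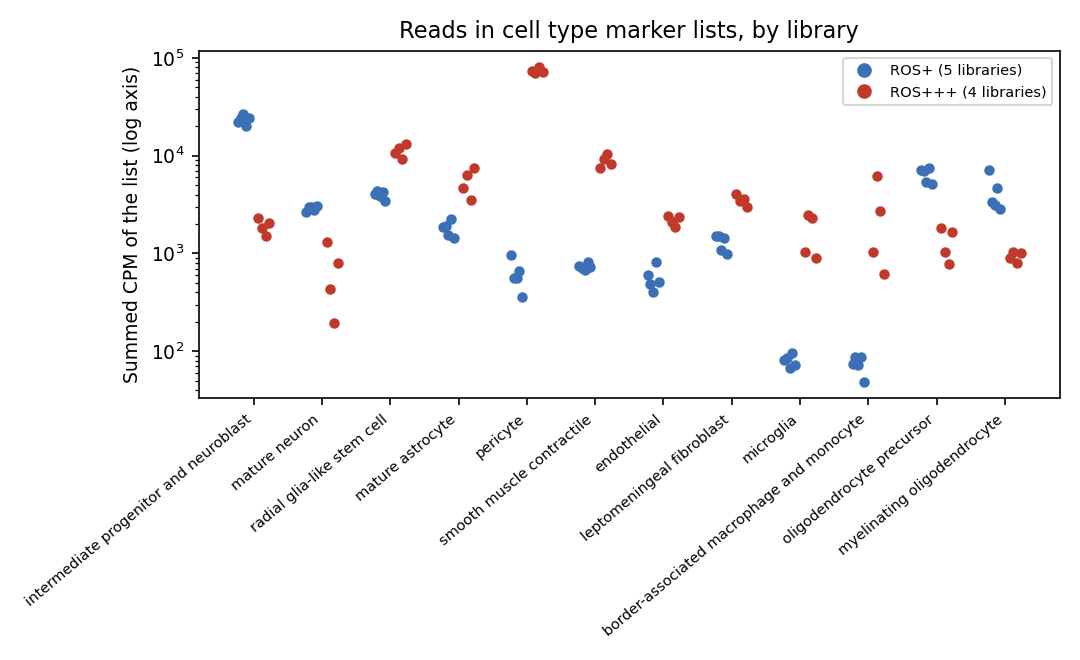
Points are single libraries (blue, 5 ROS+, and red, 4 ROS+++), and the log y axis is the summed CPM of each marker list. The classes do not overlap in any of the 12 lists. The leptomeningeal fibroblast sum in ROS+ is mostly Pdgfra, which is also in the oligodendrocyte precursor list. The border-associated macrophage and monocyte list spread most within ROS+++ on this axis, from 618 to 6239 CPM.

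Genes of the neuronal lineage went the other way. Of 36 genes of intermediate progenitors and neuroblasts 34 fell and none rose, with a median of -4.74 with library totals and -4.40 with median-of-ratios scaling, and in 34 the libraries did not overlap. The list summed to 19942 to 26389 CPM in ROS+ and 1509 to 2289 CPM in ROS+++. Neurod1 (chromosome 2, 79452521 to 79456751), a basic helix-loop-helix factor needed by newborn granule neurons, was at 1211, 1703, 1572, 1357 and 1849 CPM in the ROS+ libraries and 0.382, 1.08, 1.76 and 6.77 CPM in the ROS+++ libraries. It fell by 9.08 ± 0.39 (adjusted p = 3.07e-11), the largest fall of any called gene whose libraries did not overlap. Eomes was at 31.9, 35.5, 59.1, 47.9 and 58.7 CPM in the ROS+ libraries and 0.191, 0.147, 0.143 and 0.236 CPM in the ROS+++ libraries, which is 3 or 4 reads in each ROS+++ library, and fell by 5.29 ± 0.27. Dcx, which stabilises microtubules in migrating neuroblasts, was at 372, 419, 529.9, 415 and 484 CPM in the ROS+ libraries and 4.06, 0.196, 0.238 and 8.19 CPM in the ROS+++ libraries and fell by 7.26 ± 0.49. ROS+++ replicates 1 and 4 held more of it than replicates 2 and 3. Calb2, the calcium-binding protein calretinin of young granule neurons, fell by 8.68 ± 0.74, the surface glycoprotein gene Cd24a by 7.83 ± 0.54, Sox11 by 7.76 ± 0.48 and Lzts1 by 6.72 ± 0.60. Also lower were Neurod6 (-7.39 ± 0.53), the microtubule genes Stmn2 (-7.07 ± 0.78) and Tubb3 (-7.02 ± 0.55), the sialidase gene Neu4 (-6.60 ± 0.70), Ralyl (-6.57 ± 0.33) and Zfp57 (-6.43 ± 0.95). Sox11 remained readable in ROS+++, at 123, 28.9, 13.4 and 51.2 CPM against 6736 to 11111 CPM in ROS+. The nuclear factor genes Nfib and Nfia, among the genes with most reads in ROS+, fell by 4.76 ± 0.21 and 2.01 ± 0.13.

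Genes of mature neurons and of division fell as well. In the mature neuron list 14 of 20 fell and 1 rose, with a median of -2.51 with library totals and -2.14 with median-of-ratios scaling. Rbfox3, the NeuN antigen, was at 29.1 to 44.7 CPM in ROS+ and 0.286 to 3.58 CPM in ROS+++ and fell by 4.10 ± 0.40, Gad1, the enzyme that makes GABA, fell by 3.39 ± 0.56, the synaptic fusion gene Snap25 by 4.87 ± 0.41, the glutamate receptor gene Grin2b by 3.34 ± 0.27 and Map2 by 2.48 ± 0.14. The member that rose was the calmodulin-binding gene Nrgn, at 0.751 to 2.34 CPM in ROS+ and 0.932 to 7.43 CPM in ROS+++, with overlapping libraries (1.15 ± 0.40, adjusted p = 0.0207). It did not pass when ROS+++ replicates 3 or 4 were left out (adjusted p = 0.0623 to 0.0854). Of 40 cell cycle genes 24 fell and none rose, with a median of -1.61 with library totals and -1.31 with median-of-ratios scaling, and 19 fell after scaling. The proliferation antigen gene Mki67 was at 33.2, 14.7, 37.7, 54.1 and 8.02 CPM in the ROS+ libraries and 12.8, 3.39, 0.238 and 3.23 CPM in the ROS+++ libraries. The classes overlapped, ROS+ itself spanned 8.02 to 54.1 CPM, and the change was -2.58 ± 0.60 (adjusted p = 0.00137). The topoisomerase gene Top2a was at 6.9 to 107 CPM in ROS+ and 0.787 to 25.6 CPM in ROS+++ and fell by 3.06 ± 0.89, a call lost in limma-voom (adjusted p = 0.114). Pcna, the sliding clamp of DNA polymerase, was at 84.2 to 106 CPM in ROS+ and 61.6 to 114 CPM in ROS+++, a change of -0.02 ± 0.17 that did not pass (adjusted p = 0.921). Stmn1, also a member of the neuroblast list, fell by 4.45 ± 0.25. The G1 kinase gene Cdk4 fell by 1.88 ± 0.11, and the replicative helicase genes Mcm7 and Mcm5 by 2.59 ± 0.18 and 2.37 ± 0.26.

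Oligodendrocyte precursor genes fell with the neuroblast genes. Of 18 tested, 17 fell and 1 rose, with a median of -4.04 with library totals and -3.64 with median-of-ratios scaling. Pdgfra, the growth factor receptor that marks these precursors, was at 1217, 1450.3, 1020.4, 1228 and 938 CPM in the ROS+ libraries and 209.7, 22.8, 5.57 and 79.9 CPM in the ROS+++ libraries and fell by 4.84 ± 0.77. ROS+++ replicate 1 held the most of its class and replicate 3 the least. The lineage factors Sox10, Olig1, Olig2 and Nkx2-2 fell by 4.03 ± 0.31, 4.33 ± 0.41, 3.80 ± 0.47 and 4.06 ± 0.37. The exception was Cspg4, which encodes the proteoglycan NG2 of both oligodendrocyte precursors and pericytes. Cspg4 was at 199.8, 174, 175, 265 and 183 CPM in the ROS+ libraries and 436, 451, 536 and 464 CPM in the ROS+++ libraries, without overlap, and rose by 1.25 ± 0.14 (adjusted p = 4.23e-07). Both PDGF receptor genes thus moved apart between the same libraries, Pdgfra by -4.84 ± 0.77 and Pdgfrb by 8.53 ± 0.73. The myelinating oligodendrocyte list split, with 5 of 19 higher and 10 lower and a median of -1.73 with library totals and -1.34 with median-of-ratios scaling. The myelin protein gene Mbp fell by 2.47 ± 0.48, as did Cnp (2.74 ± 0.31), Enpp2 (3.45 ± 0.27), the galactolipid enzyme gene Ugt8a (3.51 ± 0.37) and the myelin gene regulator Myrf (3.59 ± 0.33). Opalin, transferrin (Trf), Aspa, Mal and the lipid carrier Apod rose, by 2.37 ± 0.82, 2.83 ± 0.45, 2.47 ± 0.73, 3.31 ± 1.10 and 3.42 ± 0.84. The call of Opalin ended without ROS+++ replicate 2 (adjusted p = 0.0514), and those of Opalin and Mal in limma-voom (adjusted p = 0.256 and 0.254). With a pseudocount of 5 CPM the calls of Opalin, Mal and Aspa ended (adjusted p = 0.146, 0.0636 and 0.0571). Mog, a surface protein of mature myelin, was at 10.8 to 40.6 CPM in ROS+ and 12.9 to 27 CPM in ROS+++ (adjusted p = 0.893).

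Stem cell and astrocyte genes were mostly higher, with some members lower. Of 31 radial glia-like stem cell genes 21 rose and 5 fell, with a median of 1.81 with library totals and 2.25 with median-of-ratios scaling. Nes was at 11.2, 14.5, 14.8, 23 and 19.4 CPM in the ROS+ libraries and 321, 203, 248 and 137 CPM in the ROS+++ libraries and rose by 3.67 ± 0.24 (adjusted p = 7.45e-10) and by 4.10 ± 0.24 after scaling. Gfap, the astroglial filament, was at 4.11, 1.15, 11.2, 18.7 and 2.25 CPM in the ROS+ libraries and 74.2, 197, 69.1 and 171 CPM in the ROS+++ libraries and rose by 4.24 ± 0.55, and Hopx, which marks quiescent stem cells, rose by 3.75 ± 0.74. The Notch effector gene Hes1 rose by 4.21 ± 0.30 and the phagocytic bridge protein gene Mfge8 by 3.68 ± 0.15. Sox2, the transcription factor of neural stem cells, was at 26.2, 21, 26.1, 33 and 31.5 CPM in the ROS+ libraries and 5.06, 16.8, 7.62 and 23.9 CPM in the ROS+++ libraries, and ROS+++ replicate 4 overlapped ROS+. Its change was -1.19 ± 0.36 with library totals (adjusted p = 0.00899) and -0.78 ± 0.35 after scaling, which did not pass (adjusted p = 0.0702). The members that fell under both scalings were the helix-loop-helix inhibitor gene Id2 (-2.59 ± 0.15), the homeobox gene Emx2 (-2.55 ± 0.37), Ednrb (-1.87 ± 0.24) and the fatty acid binding protein gene Fabp7 (-1.002 ± 0.20). With library totals Nes and Sox2 therefore moved in different directions between the same libraries. The pericyte, radial glia-like stem cell and mature astrocyte lists all summed higher in the ROS+++ libraries, where Nes was high. Which cells carried Nes was not tested.

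In the mature astrocyte list 18 of 22 rose and 3 fell, with a median of 1.78 with library totals and 2.19 with median-of-ratios scaling. The water channel gene Aqp4 was at 1.15, 1.1, 0.401, 14.4 and 0 CPM in the ROS+ libraries and 24.1, 112, 30.4 and 97.1 CPM in the ROS+++ libraries and rose by 4.44 ± 0.64. Gja1, the gap junction protein connexin 43, rose by 5.52 ± 0.57, the folate enzyme gene Aldh1l1 by 3.19 ± 0.50, angiotensinogen (Agt) by 5.24 ± 0.42, Mlc1 by 5.39 ± 0.46 and the sodium pump subunit gene Atp1b2 by 3.93 ± 0.21. ROS+ replicate 4 was the highest of its class for Aqp4, Gja1, Aldh1l1, Agt and Mlc1. In ROS+++, replicates 2 and 4 held more Aqp4, Gja1, Gfap and Mlc1 than replicates 1 and 3, without overlap between these pairs. S100b, a calcium-binding protein of astrocytes and oligodendrocyte precursors, fell from 223 to 446 CPM to 15 to 41.5 CPM (-3.83 ± 0.29). The lipid transporter gene Mfsd2a fell by 3.54 ± 0.31. Gpc5 was lower with library totals only (-1.09 ± 0.32, adjusted p = 0.00817, and adjusted p = 0.0991 after scaling).

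**Figure D4:**
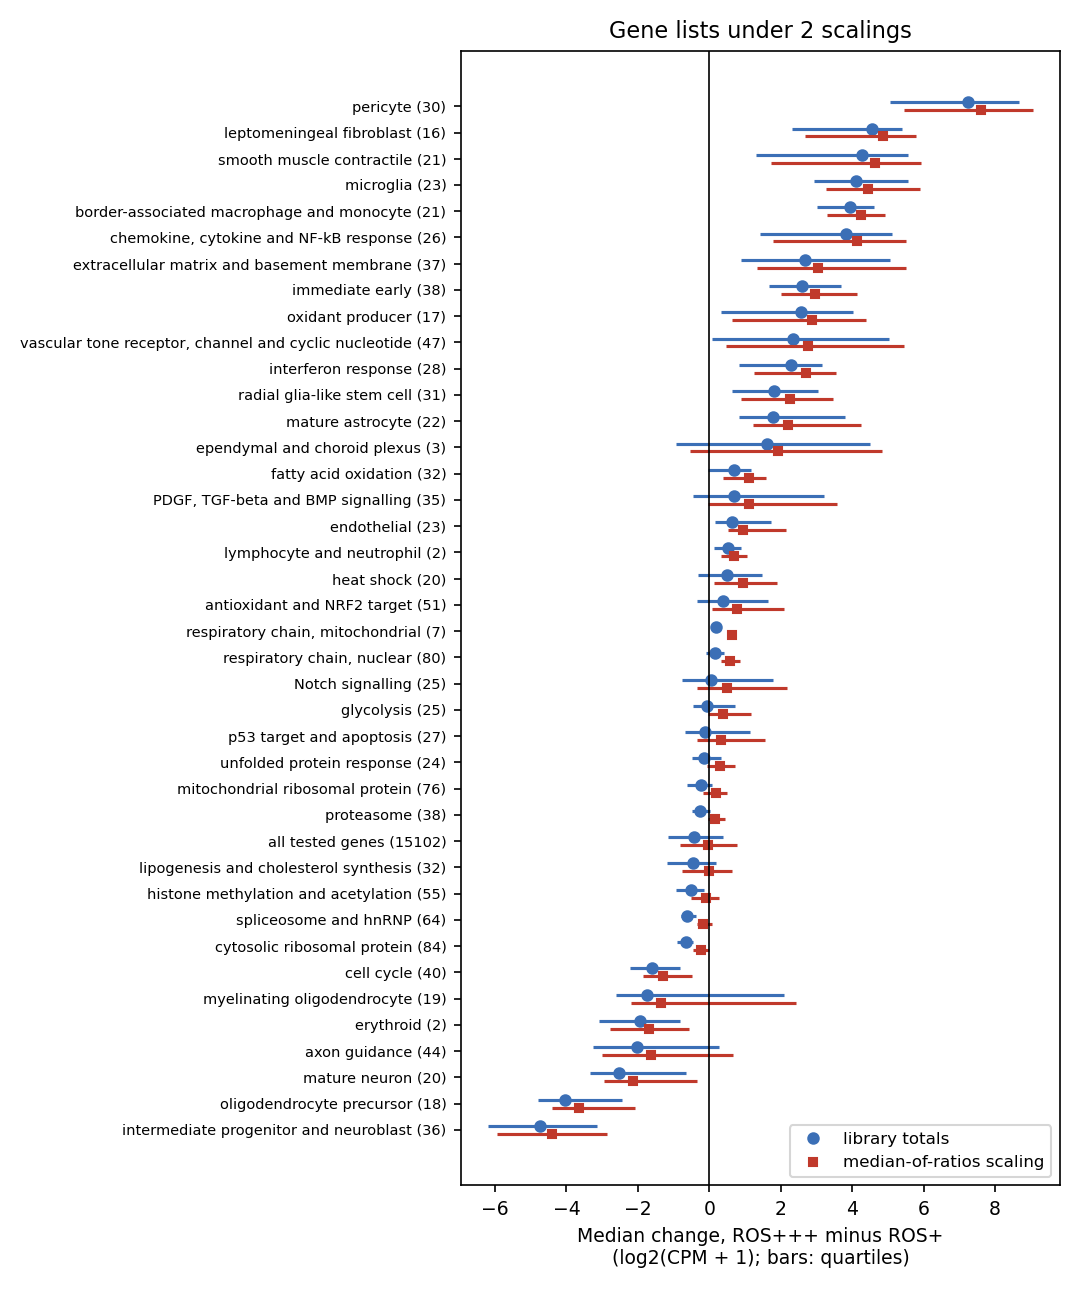
Each row is a gene list with its number of tested members, and the symbols give the median change from ROS+ to ROS+++ (log2(CPM + 1)) with bars from the lower to the upper quartile over members, for library totals (blue circles) and median-of-ratios scaling (red squares). Medians run from -4.74 for the intermediate progenitor and neuroblast list to 7.25 for the pericyte list with library totals, and those close to 0 change side between the scalings.

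Immediate early genes, which cells switch on within minutes of a stimulus, were among the largest group changes outside the cell type lists. Of 38 tested, 32 rose and none fell, with a median of 2.59 with library totals and 2.96 with median-of-ratios scaling. The list summed to 1253 to 1608 CPM in ROS+ and 13559 to 18253 CPM in ROS+++. Fos, a subunit of the AP-1 factor, was at 154, 178, 202, 134 and 247 CPM in the ROS+ libraries and 3421, 5658, 6134 and 4971 CPM in the ROS+++ libraries, without overlap. It rose by 4.78 ± 0.32 (adjusted p = 1.87e-08) and by 5.22 ± 0.32 after scaling. Its partner Jun rose from 21.5 to 41.9 CPM to 308 to 464 CPM (3.66 ± 0.22) and Fosb from 10.7 to 25.8 CPM to 677 to 832 CPM (5.47 ± 0.36). The antiproliferative gene Btg2 was at 195, 332, 275, 191 and 252 CPM in the ROS+ libraries and 2808, 2859, 2540.0 and 2233 CPM in the ROS+++ libraries and rose by 3.41 ± 0.19. Dusp1, a phosphatase that switches off MAP kinases, was at 16.7, 15.8, 17.8, 17.7 and 20.9 CPM in the ROS+ libraries and 419, 411, 418 and 291 CPM in the ROS+++ libraries and rose by 4.35 ± 0.27, and Zfp36, which promotes decay of cytokine mRNAs, rose from 35.2 to 53.7 CPM to 587 to 1437 CPM (4.56 ± 0.36). The dissociation and sorting described in the labels were the same for all 9 libraries, but the cell type lists differed between the classes. No library of undissociated tissue was analysed here, and whether dissociation had a part in these values was not tested.

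Promoters of these genes are known for sites of serum response factor and of the cyclic AMP responsive factor CREB. RefSeq promoter windows (GRCm38.p6) were searched for these sites on both strands. Only the 250 bases before the start were used, and bases after the start were left out. Windows were matched by symbol for 32 of the 38 immediate early genes and 10876 of the 15102 tested genes. The cyclic AMP element TGACGTCA was in the windows of 3 of the 32 genes (9.38%), Btg2, Dusp1 and Errfi1, against 3.00% of the 10876. Its 5-letter core TGACG, which the full element also contains, was in 19 of 32 (59.4%) against 29.8%. The CArG box of serum response factor was in 4 of 32 (12.5%), Dusp5, Egr2, Srf and Zfp36, against 1.41%, and among 19 smooth muscle genes with a window in Myl9 and Srf (10.5%). A match describes these letters and is not evidence of binding. The stretches below, upstream of genes whose values are given above, carry their match in capitals and end between 5 and 130 bases before the start.
Fos, TGACG, chr12:85473754-85473843, plus strand: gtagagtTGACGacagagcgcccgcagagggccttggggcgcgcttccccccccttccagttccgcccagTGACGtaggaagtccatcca
Btg2, TGACGTCA, chr1:134079286-134079345, minus strand: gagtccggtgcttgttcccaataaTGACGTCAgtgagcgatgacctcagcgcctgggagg
Dusp1, TGACGTCA, chr17:26508583-26508642, minus strand: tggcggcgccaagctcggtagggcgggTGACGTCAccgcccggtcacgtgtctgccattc
Zfp36, CArG box, chr7:28379234-28379293, minus strand: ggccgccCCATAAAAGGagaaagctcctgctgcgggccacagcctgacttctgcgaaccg
Myl9, CArG box, chr2:156775274-156775333, plus strand: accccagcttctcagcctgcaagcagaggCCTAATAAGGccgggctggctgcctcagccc
All 5 genes rose, without overlap between the classes, by 4.78, 3.41, 4.35, 4.56 and 6.62. Across the other motifs, the heat shock element (GAA, TTC and GAA, each 2 bases apart) was in 2 of 15 heat shock genes with a window (13.3%), Hspd1 and Hspe1, against 0.460% of all. Whether these 2 windows hold the same site was not tested. Hspd1 did not rise, at -0.49 with library totals and -0.05 after scaling. The windows of Dnajb1 and Hspb1, which rose, did not hold the element. Among the genes called beyond 2-fold under both scalings, the AP-1 element TGANTCA was in 8.93% of 1042 higher genes and 5.71% of 911 lower genes with a window, against 5.39% of all. The cyclic AMP element was in 1.54% of the higher and 2.63% of the lower genes, against 3.00%. The proneural E-box CANCTG was in 48.2% of the higher and 52.3% of the lower genes, against 42.7%.

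The largest changes among heat shock genes were rises. Of 20 tested, 11 rose and 5 fell with library totals, and 12 rose and 1 fell after scaling, with a median of 0.49 with library totals and 0.93 with median-of-ratios scaling. The inducible HSP70 gene Hspa1a was at 0.988, 0.528, 0.937, 1.58 and 2.77 CPM in the ROS+ libraries and 234, 279.9, 321 and 422 CPM in the ROS+++ libraries and rose by 7.10 ± 0.44. Its near-identical neighbour Hspa1b rose by 6.09 ± 0.41, and reads of the pair may have been split between them. The co-chaperone gene Dnajb1 rose by 4.69 ± 0.33 and the small heat shock protein gene Hspb1 by 4.37 ± 0.45. Of the members that fell with library totals, only the HSP90 co-chaperone gene Stip1 did so after scaling (-0.95 ± 0.15 and -0.51 ± 0.15). The HSP90 gene Hsp90ab1 was at -0.49 ± 0.08 and -0.05 ± 0.09, and the mitochondrial chaperonin gene Hspd1 at -0.49 ± 0.10 and -0.05 ± 0.12.

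Cytokine and interferon genes mostly rose. Of 26 chemokine, cytokine and NF-kB response genes 22 rose and 2 fell, with a median of 3.81 with library totals and 4.14 with median-of-ratios scaling. Ccl3, a chemokine made by macrophages and microglia, was at 0.158, 0, 0, 0.512 and 0.141 CPM in the ROS+ libraries and 36, 427, 209 and 92.5 CPM in the ROS+++ libraries and rose by 6.85 ± 0.65, a call lost in limma-voom (adjusted p = 0.0884). It was lowest in ROS+++ replicate 1 and highest in replicate 2. Cxcl12, a chemokine of stromal and vascular cells, was at 188, 260.4, 259 and 263 CPM in ROS+++ against 7.37 to 15.7 CPM in ROS+ (4.26 ± 0.29). The atypical chemokine receptor gene Ccrl2 rose by 5.50 ± 0.46 and the apoptosis inhibitor gene Birc3 by 3.96 ± 0.49. The neuronal chemokine gene Cx3cl1 fell by 2.95 ± 0.45 and Il18 by 0.94 ± 0.21. Of 28 interferon response genes 20 rose and 1 fell, with a median of 2.28 with library totals and 2.70 with median-of-ratios scaling. The antiviral membrane protein genes Ifitm1, Ifitm2 and Ifitm3 rose by 7.13 ± 0.45, 4.54 ± 0.21 and 4.84 ± 0.36, and B2m, the invariant chain of class I antigen presentation, by 2.31 ± 0.18. Ifitm1 was at 1.94, 4.22, 7.14, 5.24 and 0.0938 CPM in ROS+ and 477, 595, 601 and 493 CPM in ROS+++. Ifit2, a classical interferon-induced gene, was lower with library totals (-1.03 ± 0.32, adjusted p = 0.0101) and did not pass after scaling (adjusted p = 0.131). The interferon list summed to 535 to 814 CPM in ROS+ and 3452 to 4228 CPM in ROS+++. In these same libraries the border-associated macrophage and monocyte list summed to 48.5 to 87.7 CPM in ROS+ and 618 to 6239 CPM in ROS+++. The pericyte list, of which Ifitm1 is also a member, summed to 359 to 975 CPM in ROS+ and 70312 to 81613 CPM in ROS+++. The part of any cell type in the cytokine and interferon values was not tested.

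**Figure D5:**
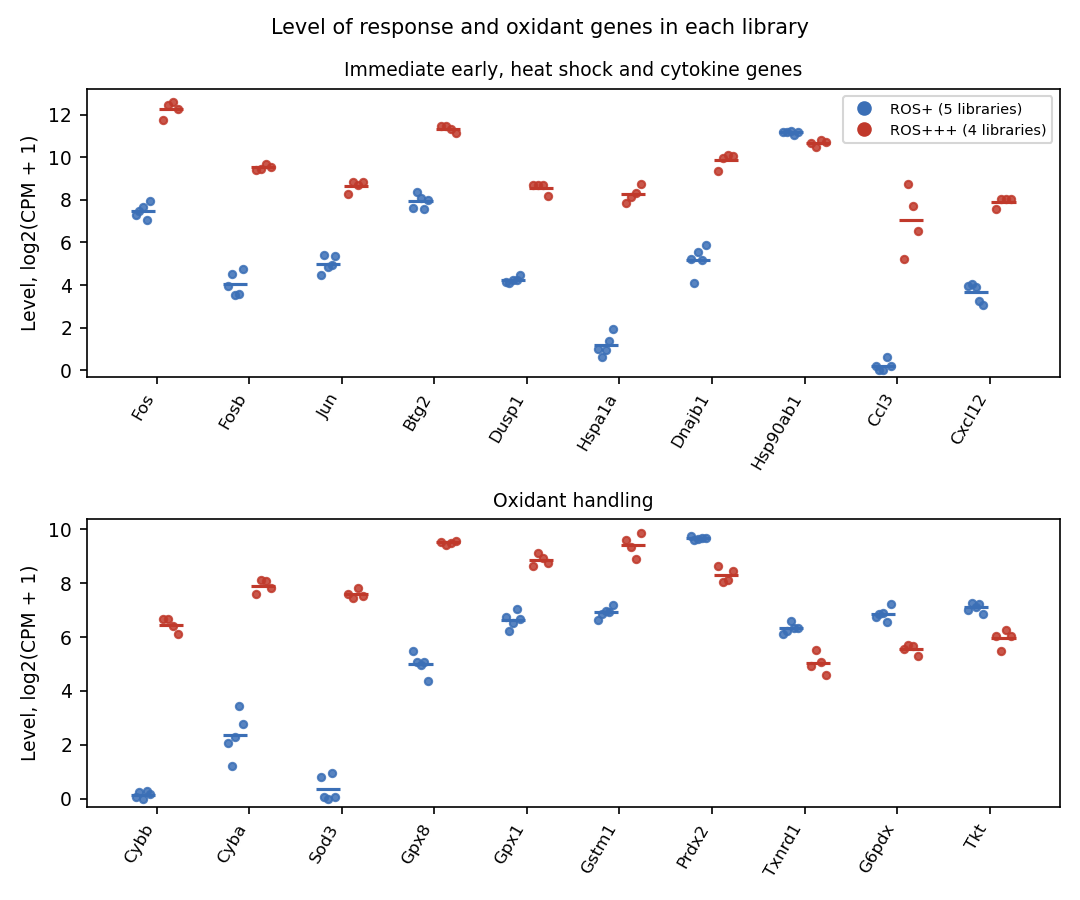
Points are single libraries (blue, 5 ROS+, and red, 4 ROS+++), lines are class means, and the y axis is the level as log2(CPM + 1). In the upper panel all genes but Hsp90ab1 are higher in ROS+++. In the lower panel the oxidase subunits Cybb and Cyba, and Sod3, Gpx8, Gpx1 and Gstm1 are higher, and Prdx2, Txnrd1, G6pdx and Tkt are lower with library totals.

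Because the gate was set on an oxidant-sensitive dye, genes that make and remove oxidants were followed in turn. Of 17 oxidant producer genes 12 rose and 1 fell, with a median of 2.57 with library totals and 2.89 with median-of-ratios scaling. Cybb (chromosome X, 9435252 to 9487771), the catalytic subunit of the phagocyte NADPH oxidase, was at 0.0395, 0.192, 0, 0.213 and 0.141 CPM in the ROS+ libraries and 99.99, 99.7, 83.4 and 67.9 CPM in the ROS+++ libraries. Each ROS+ library held 0 to 5 reads of it, and the change was 6.30 ± 0.29 (adjusted p = 1.17e-11) and 6.62 ± 0.28 after scaling. Its partner subunit gene Cyba was at 3.16, 1.34, 3.88, 9.81 and 5.86 CPM in the ROS+ libraries and 193, 275, 269 and 222 CPM in the ROS+++ libraries and rose by 5.54 ± 0.34. Alox5ap, which helps 5-lipoxygenase oxidise arachidonic acid, rose by 4.02 ± 0.39. The neuronal nitric oxide synthase gene Nos1 fell from 0.401 to 9.08 CPM to 0.147 to 0.315 CPM (-1.71 ± 0.56). In ROS+++, Cybb spanned 67.9 to 99.99 CPM, the leukocyte gene Ptprc 47.7 to 87.2 CPM and Cd163 0.43 to 65.6 CPM. Ctss spanned 122 to 334 CPM, Tyrobp 57.8 to 191 CPM and Fcer1g 41.8 to 196 CPM. Cx3cr1 (13 to 44.3 CPM) and P2ry12 (15.7 to 39.6 CPM) were highest in ROS+++ replicate 4, where Cybb was lowest. These spreads over 4 libraries were not tested.

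On the removal side, 24 of 51 antioxidant and NRF2 target genes rose and 9 fell with library totals, and 32 rose and 6 fell after scaling, with a median of 0.37 with library totals and 0.79 with median-of-ratios scaling. The list summed to 5708 to 6398 CPM in ROS+ and 10062 to 12376 CPM in ROS+++. Sod3, the extracellular superoxide dismutase, was at 0.751, 0.048, 0, 0.938 and 0.0469 CPM in the ROS+ libraries and 192, 174, 223 and 185 CPM in the ROS+++ libraries and rose by 7.22 ± 0.34 (adjusted p = 2.01e-11). Gpx8, a peroxidase of the endoplasmic reticulum, was at 43.7, 33.1, 29.9, 33.1 and 19.8 CPM in the ROS+ libraries and 744, 688, 722 and 763 CPM in the ROS+++ libraries and rose by 4.51 ± 0.18. The cytosolic glutathione peroxidase gene Gpx1 rose by 2.20 ± 0.14 and Gstm1, a glutathione transferase gene, by 2.50 ± 0.18, and in neither did the classes overlap. Other members fell. Prdx2, a cytosolic peroxiredoxin, was at 855, 781, 787, 812 and 805 CPM in the ROS+ libraries and 399, 263, 275 and 345 CPM in the ROS+++ libraries and fell by 1.35 ± 0.11 (adjusted p = 1.93e-08), and was at -0.91 ± 0.11 after scaling (adjusted p = 1.54e-06). Txnrd1, which recycles thioredoxin, was at 67.3, 73.8, 96.7, 80.4 and 80.2 CPM in the ROS+ libraries and 29.5, 45.1, 32.5 and 22.8 CPM in the ROS+++ libraries and fell by 1.30 ± 0.22. Glrx, a glutaredoxin, fell by 1.20 ± 0.23. Gclm, the modifier subunit of the enzyme that starts glutathione synthesis, was at -0.98 ± 0.30 with library totals (adjusted p = 0.0104) and at -0.57 ± 0.29 after scaling (adjusted p = 0.117). Gpx3, secreted glutathione peroxidase, was at 14.6, 3.74, 11.3, 31 and 13.3 CPM in the ROS+ libraries and 0.0955, 15.2, 7.57 and 1.18 CPM in the ROS+++ libraries. Its call with library totals (-1.64 ± 0.64, adjusted p = 0.0358) did not hold after scaling (adjusted p = 0.111) or without any of 6 single libraries, with the change nearest to 0 being -0.99 without ROS+++ replicate 1 (adjusted p = 0.158).

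Among the members that fell with library totals were genes of the pentose phosphate pathway and the malic enzyme gene Me1. Of those given here, only G6pdx and Me1 encode enzymes that make NADPH, the reductant of these systems. G6pdx, the entry enzyme of the pentose phosphate pathway, was at 107, 114, 119, 94 and 150.4 CPM in the ROS+ libraries and 45.6, 51.1, 49.9 and 38.3 CPM in the ROS+++ libraries and fell by 1.31 ± 0.21 (adjusted p = 4.07e-05), with -0.88 ± 0.22 after scaling (adjusted p = 0.00283). Tkt, the transketolase of the same pathway, fell by 1.15 ± 0.16 and stood at -0.71 ± 0.17 after scaling (adjusted p = 0.00166). The malic enzyme gene Me1 fell by 1.94 ± 0.40. The transaldolase gene Taldo1 fell by 0.46 ± 0.14 with library totals and was at -0.02 ± 0.14 after scaling (adjusted p = 0.93). The libraries of the classes did not overlap in G6pdx, Tkt or Me1.

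Genes of mitochondria mostly shifted by small amounts whose call depended on the scaling. Of 80 nuclear genes of the respiratory chain 19 rose and 6 fell with library totals, and 61 rose and 1 fell after scaling, with a median of 0.15 with library totals and 0.59 with median-of-ratios scaling. The largest changes in this list were in Ndufa4l2 and Ndufa4. Ndufa4l2, a paralogue of Ndufa4 known from pericytes, was at 11.5, 0.288, 4.42, 3.75 and 0.61 CPM in the ROS+ libraries and 865, 1551, 1695 and 1572 CPM in the ROS+++ libraries and rose by 8.55 ± 0.57, while Ndufa4 was at 445, 399, 361, 407 and 365 CPM in the ROS+ libraries and 88.4, 89.7, 51.4 and 91.1 CPM in the ROS+++ libraries and fell by 2.32 ± 0.18. Cox4i2, the tissue-restricted isoform of cytochrome oxidase subunit 4 and a member of the pericyte list, was at 2.05, 0, 1.03, 1.45 and 0.0469 CPM in the ROS+ libraries and 649, 686, 796 and 822 CPM in the ROS+++ libraries and rose by 8.73 ± 0.31, while the common isoform Cox4i1 was at -0.20 and 0.24 after scaling, as given above. The complex I gene Ndufs7 rose by 0.86 ± 0.10 and the testis isoform gene Cox6b2 by 1.76 ± 0.27. The ATP synthase genes Atp5g1 and Atp5o and the complex I gene Ndufs4 were called lower with library totals, at -0.59, -0.45 and -0.46, and stood at -0.16, -0.00 and -0.03 after scaling, with no call. Of 7 mitochondrially encoded genes 1 rose (mt-Nd2, 0.34 ± 0.12) and 1 fell (mt-Co1, -0.35 ± 0.11) with library totals, and 6 rose and none fell after scaling. The call of mt-Nd2 with library totals ended without ROS+ replicate 3 or ROS+++ replicates 2 or 4 (adjusted p = 0.0511 to 0.0877), and mt-Co1 stood at -0.23 without ROS+++ replicate 3. Their summed level was 10759 to 12286 CPM in ROS+ and 9165 to 13539 CPM in ROS+++, with overlap.

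Calls among fuel enzymes also depended on the scaling. Of 25 glycolysis genes 9 rose and 5 fell with library totals, and 12 rose and 3 fell after scaling, with a median of -0.06 with library totals and 0.37 with median-of-ratios scaling. The median lay above 0 also without ROS+++ replicate 1 (0.17), ROS+++ replicate 3 (0.04) or ROS+ replicate 3 (0.03). The aldolase genes Aldoa and Aldoc rose by 1.81 ± 0.12 and 2.64 ± 0.30, the isomerase gene Gpi1 by 1.18 ± 0.14, lactate dehydrogenase A (Ldha) by 1.03 ± 0.15, Gapdh by 0.63 ± 0.09, Tpi1 by 0.74 ± 0.12 and the glucose transporter gene Slc2a1 by 0.73 ± 0.23. Aldoa was at 597, 534, 459.6, 581 and 506 CPM in the ROS+ libraries and 1595, 1826, 2055 and 2065 CPM in the ROS+++ libraries. Of 32 fatty acid oxidation genes 17 rose and 5 fell with library totals, and 20 rose and 2 fell after scaling, with a median of 0.70 with library totals and 1.12 with median-of-ratios scaling. The thiolase gene Acaa2 was at 10.3, 15.8, 19.6, 11.6 and 17.2 CPM in the ROS+ libraries and 355, 225, 256 and 243 CPM in the ROS+++ libraries and rose by 4.10 ± 0.23, and the acyl-CoA synthetase genes Acsl1 and Acsbg1 rose by 3.69 ± 0.19 and 2.95 ± 0.34. The brain carnitine palmitoyltransferase gene Cpt1c fell under both scalings, by 1.78 ± 0.25 with library totals. The carnitine carrier gene Slc25a20 and the peroxisomal gene Hsd17b4 were called lower only with library totals, at -0.64 and -0.62.

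Genes for making, splicing and degrading the common protein pool shifted by small amounts in which the choice of scaling is of the same size. Of 84 cytosolic ribosomal protein genes 72 fell and 1 rose with library totals, and 36 fell and 6 rose after scaling, with medians of -0.66 and -0.22. The list summed to 26618 to 30009 CPM in ROS+ and 15672 to 17907 CPM in ROS+++. Rpl4 was at 1678, 1710.4, 1765, 1734 and 1842 CPM in the ROS+ libraries and 1019, 955, 976 and 913 CPM in the ROS+++ libraries, a change of -0.85 ± 0.07 and -0.41 ± 0.09 after scaling, and Rps26 fell by 1.41 ± 0.12. The paralogue gene Rpl22l1 rose by 0.49 ± 0.16. Many ribosomal protein genes have processed pseudogenes, which makes single values uncertain. Of 64 spliceosome and hnRNP genes 44 fell and 1 rose with library totals, and 12 fell and 6 rose after scaling (medians -0.63 and -0.19), with Hnrnpa1 at -1.59 ± 0.09, Snrpn at -1.95 ± 0.14 and the neuronal splicing factor gene Srsf12 at -5.22 ± 0.51. Of 76 mitochondrial ribosomal genes 25 fell and 2 rose, against 7 and 19 after scaling (medians -0.24 and 0.20). Of 38 proteasome genes 16 fell and 6 rose, against 3 and 13 after scaling (medians -0.26 and 0.17). Over all tested genes 40.0% fell and 19.2% rose with library totals, and 25.9% fell and 26.5% rose after scaling (medians -0.44 and -0.04). The medians of the mitochondrial ribosomal and proteasome genes thus lay above that of all genes under both scalings. Within the proteasome, the interferon-inducible catalytic subunit genes Psmb8, Psmb9 and Psmb10 rose by 2.92 ± 0.34, 3.41 ± 0.59 and 1.08 ± 0.17, while the regulatory particle genes Psmd14, Psmd2 and Psmd6 fell by 1.19 ± 0.14, 0.88 ± 0.12 and 0.89 ± 0.13. Psmb8 was at 3.63, 1.44, 2.1, 3.58 and 2.44 CPM in the ROS+ libraries and 29.1, 28, 19.5 and 27.9 CPM in the ROS+++ libraries.

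Lists of stress pathways that can end in growth arrest or death held both rises and falls, in a balance that depended on the scaling. Of 27 p53 target and apoptosis genes 10 rose and 8 fell with library totals, and 12 rose and 4 fell after scaling, with a median of -0.12 with library totals and 0.32 with median-of-ratios scaling, and just above 0 without ROS+++ replicate 1 (0.01) or ROS+ replicate 1 (0.0024). The membrane protein gene Perp was at 0.079, 0.048, 0.0446, 0.213 and 0.188 CPM in the ROS+ libraries and 169, 146, 188 and 142 CPM in the ROS+++ libraries and rose by 7.18 ± 0.30. The cell cycle inhibitor gene Cdkn1a rose by 2.20 ± 0.44, the BH3 protein gene Pmaip1 by 3.85 ± 0.47, the death receptor gene Fas by 2.23 ± 0.41 and the initiator caspase gene Casp8 by 3.67 ± 0.41. Of 24 unfolded protein response genes 6 rose and 8 fell with library totals, and 8 rose and 4 fell after scaling, with a median of -0.15 with library totals and 0.29 with median-of-ratios scaling. These counts lay near the shares over all tested genes. Those were 19.2% higher and 40.0% lower with library totals, and 26.5% higher and 25.9% lower after scaling. Ppp1r15a, which restores translation after stress, rose by 2.62 ± 0.29, the transcription factor genes Xbp1 and Ddit3 by 1.19 ± 0.25 and 0.63 ± 0.18, and the asparagine synthetase gene Asns fell by 2.42 ± 0.32 and the disulfide isomerase gene Pdia6 by 1.10 ± 0.12.

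Genes of Notch and of PDGF, TGF-beta and BMP signalling went in both directions. These are RNA levels, and signalling between cells was not measured. Of 25 Notch genes 10 rose and 7 fell with library totals, and 12 rose and 6 fell after scaling, with a median of 0.06 with library totals and 0.50 with median-of-ratios scaling. With library totals the median fell just below 0 without ROS+++ replicate 1 (-0.01), ROS+++ replicate 3 (-0.04) or ROS+ replicate 3 (-0.0023). Notch3, the receptor of mural cells, was at 4.23, 1.92, 1.47, 0.81 and 0.0938 CPM in the ROS+ libraries and 342, 335, 394 and 354 CPM in the ROS+++ libraries and rose by 7.23 ± 0.38, Notch2 rose by 3.78 ± 0.27 and the effector gene Heyl by 6.92 ± 0.43. The ligand genes Dll1, Dll3 and Jag2 fell by 3.00 ± 0.44, 1.40 ± 0.31 and 1.20 ± 0.40, as did Dner (2.58 ± 0.38), the glycosyltransferase gene Mfng (2.30 ± 0.48) and Hes6 (1.60 ± 0.47). Rbpj, the DNA-binding partner of all Notch receptors, fell by 0.76 ± 0.17 with library totals and was at -0.33 ± 0.18 after scaling (adjusted p = 0.132). Of 35 PDGF, TGF-beta and BMP genes 16 rose and 6 fell, with a median of 0.70 with library totals and 1.10 with median-of-ratios scaling. The ligand gene Bmp5 was at 0.0469 to 0.401 CPM in ROS+ and 51.7 to 88.8 CPM in ROS+++ and rose by 5.87 ± 0.34, while Bmp7 fell by 2.52 ± 0.50, the latent TGF-beta binding protein gene Ltbp1 by 1.48 ± 0.30 and the BMP signal transducer gene Smad5 by 1.00 ± 0.14.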

How the data were processed

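The authors deposited 1 table of log2 values, by Ensembl identifier, for 15119 genes in 14 libraries. Per the submitters' processing notes STAR, edgeR and the build mm10 were used, while no source used here gives the counting tool, the annotation or any version. The values equal log2 CPM with a prior of 1 read, as read from the values, and every value gave a whole number of reads within 0.001 reads. The reads were amplified without molecular identifiers, so limits cover counting error only, and the steps described keep no record of strand. Listed genes appear to have been filtered before deposit, since none had fewer than 82 reads in all.

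Recovered reads were scaled to library totals, log2(CPM + 1) was taken, and genes with at least 1 CPM in at least 4 libraries were kept (15102 kept, 17 removed). All 14 libraries entered a linear model with 3 class means and 11 residual degrees of freedom, tested with limma 3.58.1 (trend and robust settings, statmod 1.5.0, R 4.3.3) and its treat function for changes beyond 2-fold, with Benjamini-Hochberg adjustment over all tested genes. Because the deposited unit is log2, no negative binomial count model was used (limma-voom, an alternative, is a weighted linear model), and the tests were checked on simulated data. Median-of-ratios factors were computed from 13194 genes read in every library. Symbols and coordinates are from GENCODE mouse M21 (GRCm38), with 15060 genes named, and promoters from RefSeq.

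The comparison and the gene lists, 39 in all and set from textbook knowledge, were chosen with earlier results of these data known. Some genes are members of several lists. Named genes were the 12 largest rises and falls called under both scalings without overlap, each list's defining markers, its 4 members with the smallest adjusted p and those called against its median, the 10 genes with most reads per class, genes with opposite calls, steady genes, and genes whose sequence is shown. Of the list markers, Slc17a7, Tmem119, Cd3e, Cd79a, S100a8, Ttr, Foxj1 and Hbb-bs were not analysed here. Some genes that the rule names are not reported here. The alternatives were other scalings, pseudocounts, filters, the deposited log2 values, limma-voom, the 9 libraries alone, leaving out each library, and a block by library number. Scripts used Python with pandas.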

Additional observations from a re-analysis of the deposited data

Results flagged for a closer look

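Per-library levels of the genes and list sums given above were screened for a library that lies apart from the others of its class, by the gap to its nearest neighbour relative to the class range. Of 550 groups, 37 (6.73%) were picked out, where chance picks about 1 in 20. The picks are given as values, with those of the other libraries of the class, and with no explanation. ROS+ replicate 4 stood above its class in 14 genes of several cell types, with Aqp4 at 14.4 CPM (others 0 to 1.15), Gja1 at 40.9 (3.26 to 10.8), Mlc1 at 7.12 (0.079 to 1.2), Aldh1l1 at 4.43 (0.0446 to 1.27), Pecam1 at 38.1 (6.99 to 11.6), Myh11 at 8.19 (0.0938 to 1.29), Cspg4 at 265 (174 to 199.8), Mog at 40.6 (10.8 to 17.1), Mal at 29.0 (0 to 2.25) and Aspa at 2.30 (0 to 0.048). The other 4 were Cx3cr1 at 3.92 (0 to 0.864), Fcer1g at 0.981 (0 to 0.048), Fas at 4.14 (1.3 to 1.83) and Nrgn at 2.34 (0.751 to 1.08). ROS+ replicate 1 stood above its class in Vtn at 184 CPM (others 3.1 to 23.2), Spp1 at 105 (0.134 to 1.92), Higd1b at 10.3 (0.188 to 2.9), Nid1 at 4.98 (0.134 to 0.554), Dcn at 17.4 (0.0446 to 0.554) and Asns at 127 (67.8 to 84.6). ROS+ replicate 2 had Pmaip1 at 1.73 (0 to 0.0426) and Foxd1 at 0.048 (1 read, others 0). ROS+ replicate 3 had the lowest Psmb10 at 36.3 (42.5 to 43.9), and ROS+ replicate 5 the highest Rps26 at 376 (328 to 340.3) and cytosolic ribosomal protein sum at 30009 CPM (26618 to 27407).

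In ROS+++, replicate 1 stood above its class in Stmn2 at 30.6 CPM (others 0.0982 to 2.05), Mmp2 at 13.3 (0.736 to 1.33), Casp8 at 39.1 (24.3 to 25.9) and Taldo1 at 286 (238 to 245), and below it in Cxcl12 at 188 (259 to 263) and Cox6b2 at 21.0 (26.6 to 26.9). Replicate 2 had the highest Lum at 13.8 (0 to 0.0955). Replicate 3 had the highest Hspd1 at 223 (179 to 185) and the lowest Ndufa4 at 51.4 (88.4 to 91.1) and Psmb8 at 19.5 (27.9 to 29.1). Replicate 4, the library with the fewest reads, had the highest Alas2 at 50.8 (0.143 to 1.18) and the lowest Dusp1 at 291 (411 to 419).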

How the results depend on the processing

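The number of genes called lower with library totals, 6043, moved by more than 1.5 times under 1 alternative, median-of-ratios scaling, which gave 3912. The counts over all genes of calls in either direction, of higher calls, of changes beyond 2-fold and of genes without overlap stayed within 1.5 times of their value under every alternative run. Genes lower without overlap went from 5020 to 3175, and calls within lists moved further, as given with each list. TMM and upper-quartile factors gave 4144 and 4547 lower and 3823 and 3556 higher genes, so that 48.0% and 43.9% of calls were higher, against 32.5% with library totals. Leaving out 1 library at a time gave 8325 to 8674 calls with library totals and 7365 to 7794 with median-of-ratios scaling, 2894 to 3300 and 2793 to 3153 changes beyond 2-fold, and 7832 to 8438 genes without overlap.

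Of 39 list medians 6 changed sign. Under median-of-ratios, TMM and upper-quartile factors they were 0.37, 0.31 and 0.23 for glycolysis, 0.20, 0.14 and 0.054 for mitochondrial ribosomal proteins, 0.17, 0.11 and 0.026 for the proteasome, 0.29, 0.23 and 0.15 for the unfolded protein response, and 0.32, 0.25 and 0.17 for p53 targets, which were at 0.22 with at least 5 CPM required. Leaving out 1 library at a time gave medians of -0.12 to 0.17 for glycolysis, -0.036 to 0.13 for Notch signalling and -0.15 to 0.013 for p53 targets, with the libraries that changed their sign named above. Of 259 genes named, 247 were called with library totals, 30 of them lost the call under at least 1 alternative, 8 without a single library, and 4 changed sign, of which Cox4i1 and Hmgb1 had a call on both sides with median-of-ratios scaling. With median-of-ratios, TMM and upper-quartile factors the 4 included Cox4i1 at 0.24, 0.18 and 0.10 and Hmgb1 at 0.23, 0.17 and 0.09. With the first pair, H3f3b, without a call with library totals, was at 0.37 and 0.31 and mt-Co1, without a call after scaling, at 0.090 and 0.028. The shift of all genes with the factors is the alternative's own construction, and other causes were not tested.

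The labels do not pair the classes by library number. Runs of consecutive library numbers joined ROS+++ replicates 1, 2, 3 and 4 with ROS+ replicates 2, 3, 4 and 5. Deviations from the class means correlated within these runs at 0.067, 0.0073, -0.022 and 0.089 across genes. Of these 8 libraries, 4 correlated best with the library of their own run. A block by library-number run gave 9065 calls, 2900 higher and 6165 lower, and 3387 beyond 2-fold, and the Notch median was at -0.048. Depth limits genes near 3 reads, since 69 genes called lower had at most 3 reads over all ROS+++ libraries and 110 called higher at most 3 over all ROS+ libraries.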

Other observations

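Axon guidance genes, ligands and receptors together, were mostly lower in ROS+++. Of 44 tested 28 fell and 9 rose, with a median of -2.02 with library totals and -1.62 with median-of-ratios scaling. The netrin receptor gene Dcc was at 29.2, 34.9, 46.2, 39.3 and 45.3 CPM in the ROS+ libraries and 1.19, 1.62, 0.19 and 1.81 CPM in the ROS+++ libraries and fell by 4.24 ± 0.31. The plexin gene Plxna2, the ephrin receptor gene Ephb2 and the netrin and repulsive guidance receptor gene Neo1 fell by 3.53 ± 0.25, 4.10 ± 0.32 and 3.08 ± 0.20. Among the members that rose were the netrin genes Ntn1 and Ntn4 (1.93 ± 0.20 and 2.25 ± 0.39), the netrin receptor gene Unc5b (3.87 ± 0.53), which is also known from vessels, and Plxnb1, Plxnb2, Sema6d, Efnb1 and Ephb4 (0.92, 1.02, 0.82, 1.15 and 2.15).

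Lipid synthesis and chromatin genes had mixed directions. Of 32 lipogenesis and cholesterol synthesis genes 15 fell and 5 rose with library totals, and 9 fell and 9 rose after scaling. The acetyl-CoA carboxylase gene Acaca, the desaturase gene Scd2 and the sterol reductase gene Dhcr7 fell by 2.11 ± 0.23, 1.22 ± 0.14 and 1.53 ± 0.20. Of 55 histone methylation and acetylation genes 25 fell and 4 rose with library totals, and 13 fell and 9 rose after scaling. Over all tested genes 40.0% fell and 19.2% rose with library totals, and 25.9% fell and 26.5% rose after scaling. The deacetylase gene Hdac9 was at 78.5 to 122 CPM in ROS+ and 2.91 to 9 CPM in ROS+++ and fell by 4.08 ± 0.28, and the methyltransferase genes Ezh2 and Nsd2 fell by 2.26 ± 0.24 and 2.12 ± 0.20. Hdac5, Hdac11 and the acetyltransferase gene Kat2b rose, by 0.95, 1.09 and 1.05.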
